A study of Bos taurus with 25 samples.

Results

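Solute carriers are membrane proteins that move small molecules across the membranes of cells and organelles, and they are named by family number, letter and member (SLC22A9) or, for the organic anion transporting polypeptides, by the prefix SLCO. In the liver they take up bile acids, drugs, amino acids and fatty acids from the blood and return glucose to it. In the lactating mammary gland they supply the amino acids, ions and trace metals that go into milk. The genes described here are all those on the array whose symbol has the form SLC, number, letter, number, or begins with SLCO, apart from 6 carriers of folate, metals and glucose that the rule left out (SLC19A1, SLC46A1, SLC25A32, SLC30A1, SLC39A14 and SLC2A1), 4 of which were found on the array. They came to 235 genes of 27841 tested, read by 454 probes. Of these, 96 had 1 probe and 139 had 2 or more, up to 6.

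Biopsies came from 13 multiparous lactating Holstein cows at 64 ± 3 days after calving, and each array held labelled RNA of 1 biopsy. There were 12 hepatic and 13 mammary gland arrays, and 12 cows gave both tissues. Every cow received a weekly intramuscular injection of 5 mL. It held saline (Ctl, 3 cows), 320 mg of folic acid (B9, 3 cows), 10 mg of cyanocobalamin (B12, 4 cows) or both vitamins (B9_B12, 3 cows, of which 2 have a hepatic array). The tissues carried their own markers: the mean log2 level of 8 hepatocyte genes was 15.1 to 15.4 on hepatic arrays against 7.14 to 8.46 on mammary arrays, and that of 7 milk protein and epithelial genes found of 8 listed was 17.3 to 17.5 on mammary arrays against 6.39 to 8.10 on hepatic arrays. Some markers of other cells also differed between the tissues. The adipocyte list (3 genes found of 4) had a mean level of 9.23 to 9.57 in the gland against 6.15 to 6.62 in liver, through FABP4 alone (-9.07, liver minus gland), since LEP (-0.06) and PLIN1 (0.09) were within 2-fold. The macrophage list (4 of 4) had a mean level of 9.18 to 9.47 in liver against 8.12 to 8.73 in the gland, with CD14 (1.04), CD163 (1.78) and CD68 (2.10) higher in liver and MSR1 (-1.18) higher in the gland. The part of these cells in the differences below was not tested. In bulk biopsies, fewer cells of a type and less RNA per cell cannot be told apart.

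The median correlation of an array with the others of its tissue was at least 0.986, except for the hepatic arrays of cow 57 (B9, 0.973) and cow 32 (B9_B12, 0.973). Median signal over background was 2.30 to 10.5 on hepatic and 2.92 to 5.06 on mammary arrays, with the lowest value on the hepatic array of cow 32. Between 64.4 and 84.2% of probes were well above background on an array, and no spot was saturated. The number of arrays limits the precision of what follows.

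The first comparison is between the tissues. SLCO1B3 and SLC22A9, which take up organic anions, were higher in liver by 7.77 and 6.46 on the log2 scale. As processed here, the bile acid carrier SLC10A1 and the acyl-CoA synthetase SLC27A2 were at least 76.3-fold and 76.9-fold higher there. SLC31A2, SLC7A4, SLC1A5, SLC28A3 and SLC7A5, which carry metals, amino acids and nucleosides, were higher in the mammary gland, with differences of -6.00 to -4.56. Values are log2 intensities normalized over all 25 arrays, averaged over a gene's probes, and the difference is the mean of the hepatic treatment groups minus that of the mammary groups. A gene was called where limma gave an adjusted p of 0.05 or less and the difference reached 2-fold. Of the 235 solute carriers, 39 (16.6%) were higher in liver and 30 (12.8%) were higher in the mammary gland. Over all genes tested, 7.73% were called higher in liver and 8.81% higher in the gland, which makes 29.4% of solute carriers called against 16.5% of all genes and 21.1% of the other genes with a symbol. The median difference was -0.01 over solute carriers and -0.03 over all genes. The 12 hepatic and 13 mammary values did not overlap for 103 of the 235 (43.8%), against 26.8% of all genes.

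Every called solute carrier but 1 separated the tissues completely. The like share among all called genes was not counted. All 30 genes called higher in the gland were higher there in each of the 12 cows with both biopsies, and 38 of the 39 called higher in liver were higher there in each of them. The exception was SLC2A5, a fructose transporter, which was higher in liver in 11 of 12 cows. Within each of the 4 slides that carried both tissues, all 39 and all 30 kept their direction. A fit with the slide as a block called 41 and 33 genes. Without the hepatic arrays of cow 57 and cow 32 the counts were 40 and 32, and they held all 39 and all 30.

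The split between the directions moved with the scaling. Arrays scaled by their 75th percentile put the median difference of all genes at -0.58 with Agilent's processed signal and at -0.88 with background-corrected signal, and gave 56 genes higher in liver and 83 in the gland, and 36 and 97, respectively. Taken relative to those shifts, the counts became 74 and 47, and 60 and 21. Across these 4 alternatives, 34 to 39 of the 39 hepatic calls and 21 to 29 of the 30 mammary calls were made again. SLC25A6 turned to the hepatic direction under 1 of them. Relative to all genes, SLC25A5, SLC25A6, SLC35A4, SLC39A7 and SLC3A2 lost their mammary call with either signal, and SLC29A2, SLC30A7 and SLC44A3 were among those that lost it with background-corrected signal. SLC16A13, SLC2A5, SLC35C2, SLC25A48 and SLC29A3 lost their hepatic call with background-corrected signal at the 75th percentile. The first 3 of these also lost it on the saline arrays alone, SLC16A13 and SLC31A1 by their brightest probe, and SLC16A13 without the hepatic array of cow 38. The calls under each way of processing are drawn in the plot of call counts.

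**Figure D1:**
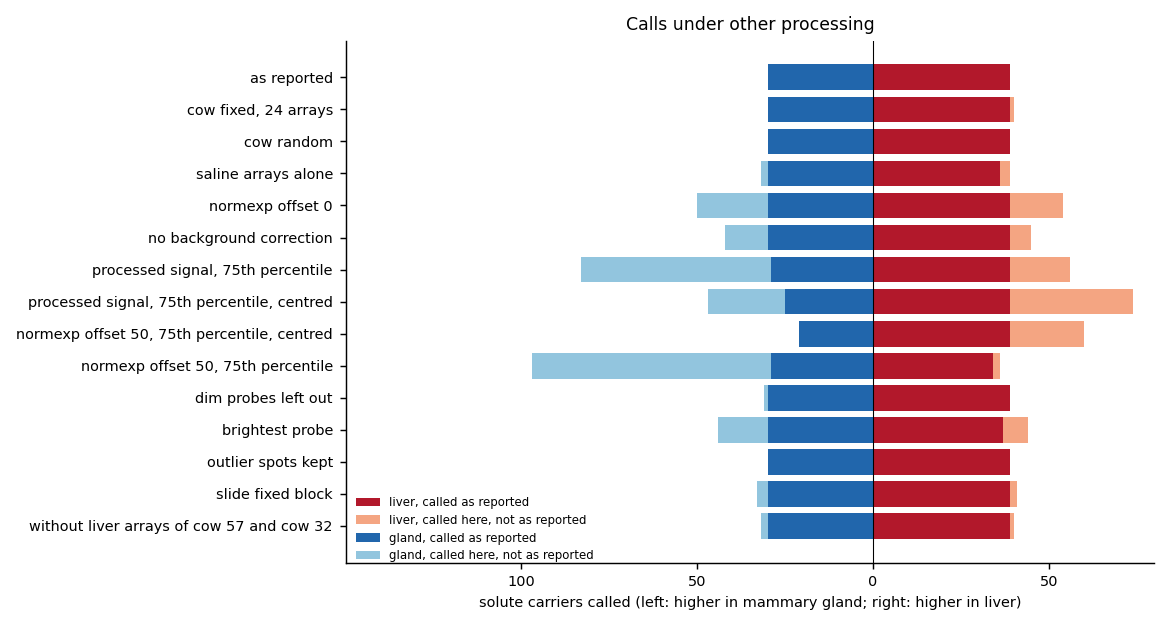
Number of solute carriers called higher in the mammary gland (left) and in liver (right) under each way of processing; dark bars are genes also called as reported (30 and 39) and light bars are genes called under that processing and not as reported. The light mammary bars are longest with 75th percentile scaling (83 and 97 calls in all), and the dark hepatic bars stay between 34 and 39.

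**Figure D2:**
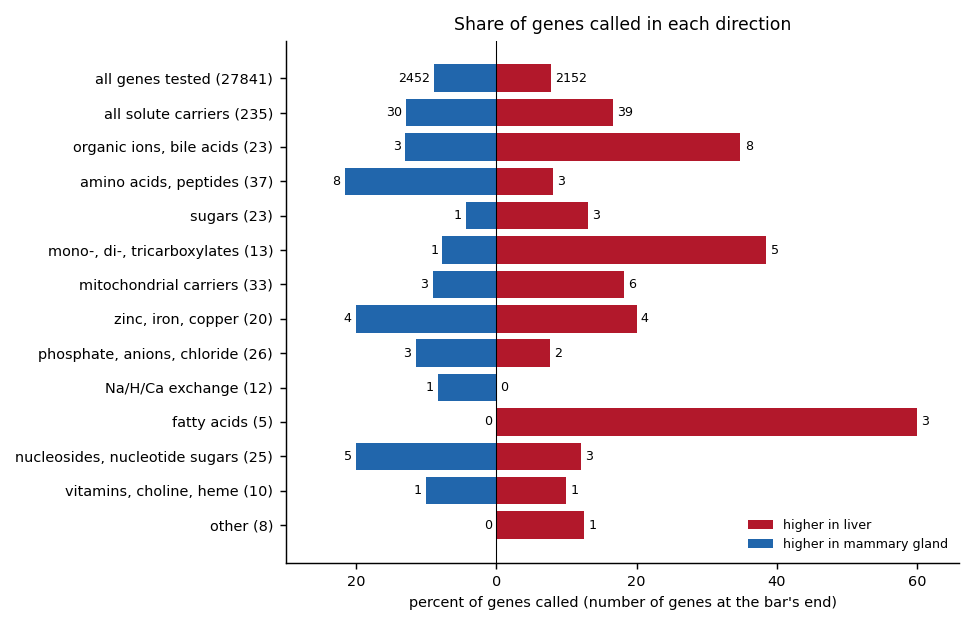
Percent of genes called higher in liver (red, to the right) and higher in the mammary gland (blue, to the left) for all genes, all solute carriers and each substrate group; the number of genes in each is in brackets and the number called stands at the bar's end. The longest hepatic bars are those of the 5 fatty acid carriers (3 called) and the 13 carboxylate carriers (5 called), and the longest mammary bar is that of the 37 amino acid and peptide carriers (8 called).

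The counts by substrate stand against 7.73% of all genes called higher in liver and 8.81% higher in the gland. The carriers of organic ions and bile acids held 8 hepatic and 3 mammary calls among 23 genes. The 5 fatty acid carriers had a median difference of 3.46, with 3 called higher in liver and none in the gland. The 13 carriers of mono-, di- and tricarboxylates had a median of 0.61, with 5 hepatic calls and 1 mammary call. The 37 amino acid and peptide carriers had 3 hepatic and 8 mammary calls and a median of -0.02. The 20 carriers of zinc, iron, copper and related metals had 4 calls each way. Mitochondrial carriers (33 genes) had 6 and 3, nucleoside and nucleotide sugar carriers (25 genes) 3 and 5, sugar carriers (23 genes) 3 and 1, and phosphate, anion and chloride carriers (26 genes) 2 and 3. The shares called in either direction were 17.4% for sugar carriers and 19.2% for phosphate, anion and chloride carriers, near the 16.5% of all genes.

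**Figure D3:**
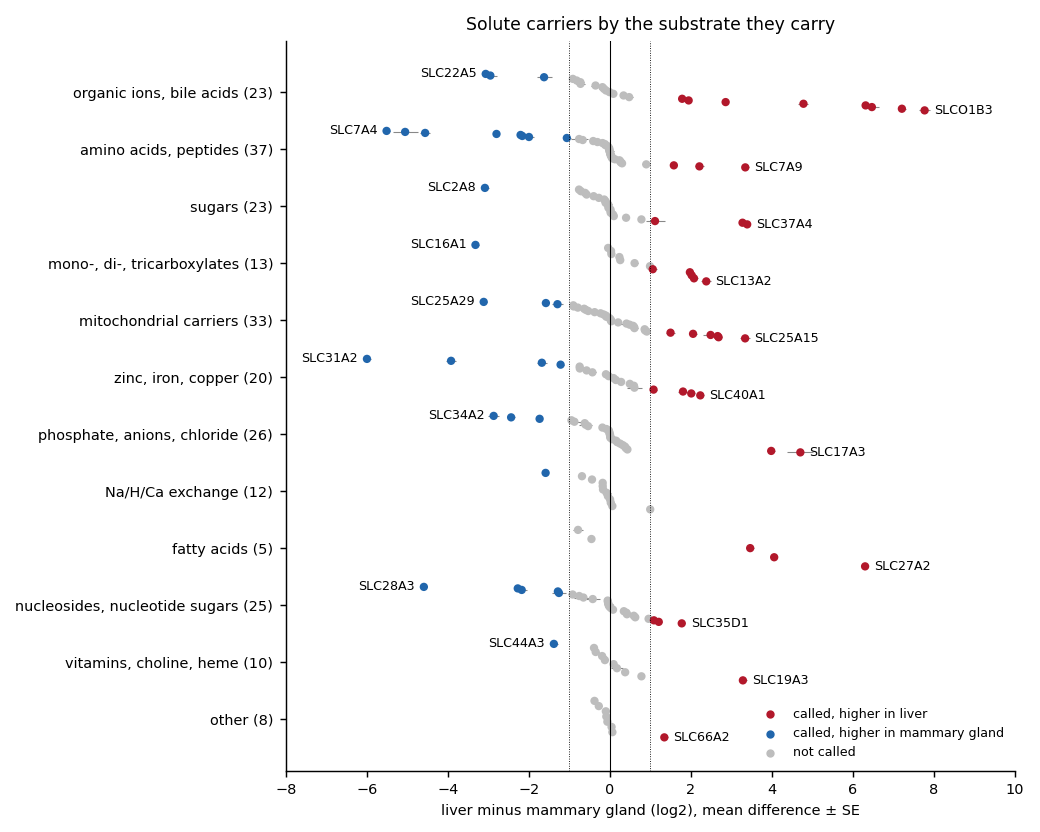
Liver minus mammary gland difference (log2, mean ± SE) of each of the 235 solute carriers, grouped by substrate; red and blue points passed the adjusted p and the 2-fold limit (dotted lines), grey points did not, and the outermost called genes of most groups are named. Differences run from -6.00 (SLC31A2) to 7.77 (SLCO1B3).

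The uptake carriers of organic ions and bile acids gave the largest differences toward liver. SLCO1B3, which takes up bile acids and bilirubin, ranged on hepatic arrays from 12.95 (median 14.09) to 14.71, and on mammary arrays from 6.03 (median 6.10) to 6.90. The difference was 7.77 ± 0.13 (SE; limma adjusted p = 4.26e-21), a fold of 217.7 on this scale, and its 3 probes gave 7.19 to 8.61. SLC10A1, the sodium-dependent carrier of conjugated bile acids, was at 12.30 ± 0.26 (SD, n = 12) in liver and was not well above background on any mammary array, so its hepatic level was at least 76.3-fold higher (limma adjusted p = 7.92e-23). SLC22A7, an organic anion transporter, was likewise at least 27.2-fold higher in liver. These bounds hold for this processing only. Under other settings the log2 differences of SLC10A1 and SLC22A7 fell to 6.09 and 4.40. The groups overlapped for none of these genes.

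SLC22A9 belongs to the same organic anion branch and was read by 1 probe. On hepatic arrays it ranged from 11.20 (median 12.64) to 13.50, and on mammary arrays from 5.92 (median 6.02) to 6.26. The hepatic SD of 0.79 was larger than that of SLC10A1 (0.26). Its difference was 6.46 ± 0.18 (limma adjusted p = 3.25e-17), and it was well above background on all 12 hepatic arrays and on 1 of 13 mammary arrays. The size of the difference thus depends on the offset and was 8.76 with none. Over the saline arrays alone the difference was 7.27. Close relatives in this family may share the probe's signal.

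Other carriers of organic anions were higher in liver by less: SLCO2B1 by 2.86, SLCO4C1 by 1.94 and SLCO1A2 by 1.78. The 3 members of the group called in the other direction were SLC22A5, the high-affinity carnitine transporter (-3.07 ± 0.09), SLC22A16, another carnitine carrier (-2.95 ± 0.17), and SLC22A6, an organic anion exchanger best known from the kidney (-1.63 ± 0.18).

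**Figure D4:**
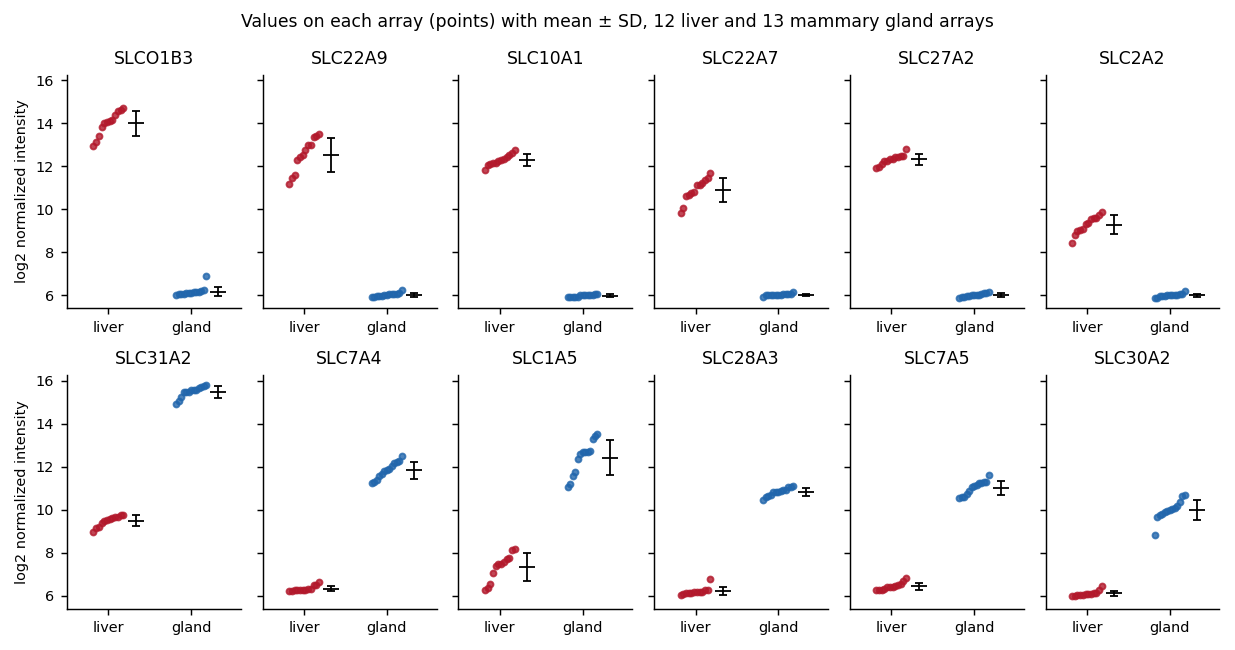
Log2 normalized intensity on each hepatic (red, 12) and mammary gland (blue, 13) array for 6 solute carriers higher in liver (top) and 6 higher in the gland (bottom), with mean ± SD in black. The tissues do not overlap in any panel; SLC22A9 in liver and SLC1A5 in both tissues have the widest spread.

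Fatty acid carriers of the SLC27 family, which join fatty acids or bile acids to coenzyme A, held 3 hepatic calls and no mammary call. SLC27A2, a very-long-chain acyl-CoA synthetase, was at 12.33 ± 0.24 in liver and not well above background on any mammary array, which puts it at least 76.9-fold higher in liver. SLC27A5, the bile acid-CoA ligase, differed by 4.05 ± 0.07, although its 3 probes ranged from 1.31 to 5.74. SLC27A4 differed by 3.46 ± 0.09. SLC27A6, a member known from the mammary gland, had -0.79 ± 0.11 and did not reach 2-fold, and its 3 probes disagreed in sign (-1.69 to 0.66).

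Sugar carriers were called in both directions. SLC2A2 (GLUT2), the low-affinity glucose carrier of hepatocytes, ranged from 8.45 (median 9.35) to 9.89 in liver and from 5.89 (median 6.00) to 6.18 in the gland, a difference of 3.27 ± 0.09 (limma adjusted p = 4.25e-17). It was well above background on 1 of 13 mammary arrays, so the size of the difference depends on the offset and was 5.57 with none. SLC37A4, which brings glucose-6-phosphate into the endoplasmic reticulum, differed by 3.39 ± 0.07. SLC2A5 differed by 1.11 ± 0.23, with a hepatic SD of 0.77, and was no longer called without the hepatic array of cow 42 or cow 52. The only sugar carrier called higher in the gland was SLC2A8 (GLUT8), an intracellular hexose carrier, at -3.09 ± 0.10. SLC5A1, the sodium-glucose cotransporter, had -0.58 ± 0.05 with no overlap between tissues. That is below the 2-fold limit, which it passed with no offset (-1.26) and with 75th percentile scaling of the processed signal (-2.01).

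Amino acid carriers made up the largest set called toward the gland. SLC7A4, a relative of the cationic amino acid carriers, ranged from 11.25 (median 11.82) to 12.50 in the gland and from 6.20 (median 6.26) to 6.61 in liver, a difference of -5.51 ± 0.09 (limma adjusted p = 2.16e-21). SLC1A5 (ASCT2), which exchanges glutamine and other neutral amino acids, differed by -5.06 ± 0.31, with SDs of 0.65 in liver and 0.81 in the gland. SLC7A5 (LAT1), the carrier of leucine and other large neutral amino acids, differed by -4.56 ± 0.12, and its 3 probes ranged from -7.36 to -1.93. Its partner chain SLC3A2 had -1.06 ± 0.09. That call is close to the limit: it was -0.99 without the hepatic array of cow 38 and -0.25 (limma adjusted p = 0.0656) with 75th percentile scaling taken relative to all genes.

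The same direction held for SLC6A8, the creatine transporter (-2.80), SLC38A2, a glutamine and alanine carrier (-2.21), SLC7A10 (-2.16) and SLC1A4 (-2.00), both carriers of small neutral amino acids. Called toward liver were SLC7A9, a cystine and dibasic amino acid carrier not well above background on any mammary array (at least 9.96-fold), SLC43A2 (2.21) and SLC7A7 (1.58). SLC7A8, a further neutral amino acid exchanger, had -0.76 ± 0.21 and was not called.

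Trace metal carriers went both ways. SLC31A2, a homologue of the copper importer, had the largest mammary difference of all solute carriers as processed here, although with no offset (-6.12) it came after SLC7A4 (-7.08) and SLC28A3 (-6.33), and with 75th percentile scaling of the processed signal (-5.98) after SLC7A4 (-8.43), SLC30A2 (-8.13) and SLC28A3 (-7.80), among others. It was at 14.91 (median 15.55) to 15.78 in the gland against 8.96 (median 9.56) to 9.77 in liver, or -6.00 ± 0.10 from 1 probe (limma adjusted p = 7.74e-21). SLC30A2 (ZnT2), which loads zinc into secretory vesicles for milk, was at 9.98 ± 0.47 in the gland and 6.10 ± 0.13 in liver, a difference of -3.92 ± 0.13. It was well above background on 4 of 12 hepatic arrays, and its difference was -5.96 with no offset. The Golgi zinc carrier SLC30A7 had -1.68 and the endoplasmic reticulum zinc carrier SLC39A7 had -1.22. Toward liver, SLC40A1 (ferroportin), the iron exporter, differed by 2.23 ± 0.10, the manganese exporter SLC30A10 was at least 3.92-fold higher, and the copper importer SLC31A1 differed by 1.08. SLC11A1, a metal transporter of phagocytes, differed by 1.80 ± 0.12; of the 4 macrophage markers, 3 were higher in liver and MSR1 was higher in the gland.

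Carboxylate carriers called toward liver were SLC13A2 (2.38) and SLC13A3 (2.02), which carry dicarboxylates, and SLC16A7 (2.07), SLC16A6 (1.97) and SLC16A13 (1.06) of the monocarboxylate family. The probes of SLC13A3 (-0.11 and 4.14) and SLC16A13 (-2.11 to 2.91) disagreed in sign, and SLC16A13 was lower in liver by its brightest probe. SLC16A1 (MCT1), the lactate and ketone body carrier, was the mammary call, at -3.32 ± 0.09 with its 3 probes within -3.40 to -3.22. SLC13A5, the citrate carrier, had 0.99 ± 0.10, just under 2-fold, and moved with the processing from 0.18 (75th percentile scaling of background-corrected signal) to 4.52 (that of processed signal, relative to all genes).

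Of the mitochondrial carriers, SLC25A15, the ornithine carrier of the urea cycle, was higher in liver by 3.34 ± 0.11 and SLC25A20, the carnitine-acylcarnitine carrier of fatty acid oxidation, by 2.66 ± 0.09. SLC25A25 (2.68), SLC25A30 (2.48), SLC25A22 (2.05), a glutamate carrier, and SLC25A48 followed. SLC25A29, a carrier of basic amino acids, was higher in the gland, with a difference of -3.12 ± 0.08. The ADP/ATP carriers SLC25A5 (-1.58) and SLC25A6 (-1.30) were called toward the gland too. SLC25A6 was not called under any of the 4 alternatives with 75th percentile scaling and changed sign for background-corrected signal taken relative to all genes. Near-identical copies may share the probes of both.

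Among ion carriers, SLC17A3 and SLC17A2, organic anion and phosphate carriers that lie next to each other in the current bovine annotation, were both called toward liver. SLC17A3 ranged from 8.08 (median 11.24) to 11.78 in liver against 5.89 (median 5.98) to 6.17 in the gland. Its difference was 4.70 ± 0.32, and 5.35 ± 0.09 without the hepatic arrays of cow 57 and cow 32. On the mammary side it was well above background on 1 of 13 arrays, and the difference was 7.08 with no offset. SLC17A2 was not well above background on any mammary array and at least 15.6-fold higher in liver. Toward the gland were SLC34A2, a sodium-phosphate cotransporter (-2.87 ± 0.13), SLC4A7, a sodium-bicarbonate cotransporter (-2.44 ± 0.09), and SLC12A2 (NKCC1), the sodium-potassium-chloride cotransporter (-1.74 ± 0.03). SLC34A2 and SLC12A2 were well above background on 7 and 8 of 12 hepatic arrays, and their differences were -4.57 and -3.34 with no offset.

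Nucleoside and nucleotide sugar carriers had 5 mammary and 3 hepatic calls. SLC28A3, a concentrative nucleoside carrier, was at 10.83 ± 0.20 in the gland and 6.20 ± 0.19 in liver, a difference of -4.59 ± 0.07 (limma adjusted p = 2.33e-21). SLC28A1 had -2.28, from probes at -4.29 and -0.26, SLC35C1, the GDP-fucose carrier, -2.18, SLC35A4 -1.29 and SLC29A2 -1.26. SLC35D1 (1.77), SLC29A3 (1.20) and SLC35C2 (1.09) were higher in liver. Among vitamin and choline carriers, SLC19A3, a thiamine carrier, was higher in liver by 3.28 ± 0.10 and SLC44A3, a choline carrier-like protein, had -1.38.

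A list of 18 carriers known from hepatocytes had 15 on the array, of which 13 were called higher in liver, against 7.73% of all genes. The other 2, SLC13A5 and the glutamine carrier SLC38A3 (0.90 ± 0.10), were below 2-fold here, although SLC38A3 reached 2.00 with 75th percentile scaling relative to all genes and SLC13A5 1.13 on the saline arrays alone. The list's median was 3.98. A list of 18 carriers known from the lactating gland had 14 on the array, of which 8 were called higher in the gland, against 8.81% of all genes, with a median of -1.40. Both lists were chosen with earlier results of these data known. The 6 not called were SLC7A8, SLC27A6, SLC5A1, SLC20A1 (-0.09), SLC35A2, the UDP-galactose carrier needed for lactose synthesis (-0.06), and SLC6A14 (0.12). None was called in the opposite direction in either list.

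The other comparison sets each vitamin treatment against saline within a tissue. No solute carrier passed the test. Differences from saline in liver included -1.69 for SLC22A9 and -1.11 for SLCO1B3 with B9_B12, and -1.60 for SLC17A3 and -0.95 for SLC2A2 with B9. These comparisons used the authors' table, which was normalized within each tissue, and all 3 treatments of a tissue were set against the same 3 saline cows. In this table, hepatic values of the solute carriers had a median SD over arrays of 0.25 and mammary values one of 0.16, against 0.22 and 0.15 for all genes. The hepatic array of cow 57 held the highest hepatic value for 59 of the 235 and the lowest for 22. That of cow 32 held the highest for 54 and the lowest for 33. The like shares over all genes were not counted. The array of cow 32 also had the highest mean level of any liver for the macrophage (9.47), endothelium (8.79) and T and B cell (8.05) marker lists, against lowest values of 9.18, 8.18 and 7.22. The part of these cells in the B9_B12 differences was not tested.

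No solute carrier was called by limma in any of the 6 comparisons, and none by Cyber-T, the test named in the methods. Over all genes, limma gave 1 call for B12 in liver (0.00359%) and 0 elsewhere. Cyber-T called 0.00718%, 0.129% and 0.0647% of all genes for B9, B12 and B9_B12 in liver and 0.0108%, 0.018% and 0.018% in the gland. At an unadjusted p of 0.05 or less, limma gave 11 solute carriers for B9 in liver (4.68%, against 3.27% of all genes), 6 for B12 (2.55% against 1.98%) and 11 for B9_B12 (4.68% against 5.87%). In the mammary gland the counts were 6 for B9 (2.55% against 2.68%), 9 for B12 (3.83% against 2.44%) and 5 for B9_B12 (2.13% against 2.05%). Treated and saline values did not overlap for 22 solute carriers with B9 in liver (9.36%, against 8.43% of all genes), 10 with B12 (4.26% against 5.13%) and 51 with B9_B12 (21.7% against 22.2%). In the gland there were 18 (7.66% against 7.09%), 6 (2.55% against 4%) and 24 (10.2% against 7.16%). With 3 against 3 or 2 against 3 cows, the two-sided exact permutation test cannot give a p below 0.1, and with 4 against 3 not below 0.0286.

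SLC22A9 is 1 of the genes that the study named in liver. In the saline cows it was at 14.38, 14.00 and 14.51. It was at 14.42, 14.02 and 12.41 with B9 (cow 57 lowest), at 13.37, 13.46, 12.27 and 13.74 with B12, and at 13.21 and 12.00 with B9_B12 (cow 32 lower). All B12 and B9_B12 values thus lay below all saline values, while 2 of the 3 B9 values lay within the saline range. The B12 difference was -1.09 ± 0.50 (SE; exact permutation p = 0.0571; limma adjusted p = 1; Cyber-T adjusted p = 0.104). The B9_B12 difference was -1.69 ± 0.59 (exact permutation p = 0.1; limma adjusted p = 0.656; Cyber-T adjusted p = 0.0555), and -1.08 without cow 32. Blocking on the slide gave -1.22 and -1.84. The B9 difference was -0.68, and -0.08 without cow 57. With the slide block it was -2.31, which rests on cow 57 alone among the B9 livers. The other B9 livers were the only hepatic arrays on their slides. Within slides that held a saline and a treated hepatic array, B12 gave -2.23 and -0.54, B9_B12 gave -1.16 and -2.01, and B9 gave -1.97 on the only such slide, which carried cow 57. In the mammary gland, where the probe was near background, the differences were 0.08 (B9), -0.04 (B12) and 0.10 (B9_B12).

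SLCO1B3 was at 15.53, 15.54 and 15.62 in the saline livers, a spread of 0.05 (SD). It was at 14.39, 15.13 and 14.10 with B9, at 14.84, 15.13, 15.04 and 15.38 with B12, and at 15.04 and 13.87 with B9_B12. Every treated cow was below every saline cow. For B9 and B9_B12 the choice of this gene required no overlap (exact permutation p = 0.1 for each, the lowest possible). The B9 difference was -1.02 ± 0.31 (limma adjusted p = 0.882), or -0.80 without cow 57, and the B9_B12 difference was -1.11 ± 0.34 (limma adjusted p = 0.656), or -0.52 without cow 32. Blocked on the slide they were -1.75, from cow 57 alone among the B9 livers, and -1.14. Within slides, B9 gave -1.43 and B9_B12 gave -0.49 and -1.67.

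SLC2A2 was at 10.39, 10.18 and 10.52 in the saline livers and at 9.90, 9.47 and 8.86 with B9. The lack of overlap was again required by the choice of the gene (exact permutation p = 0.1). The difference was -0.95 ± 0.29 (limma adjusted p = 0.882), and -0.68 without cow 57. It was -1.64 with the slide block and -1.54 on the single slide that held both groups, both from cow 57 alone. SLC17A3 was between 11.56 and 12.64 in every liver but those of cow 57 (8.46) and cow 32 (8.80), so that the most negative B9 difference of any solute carrier, -1.60, rested on cow 57.

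**Figure D5:**
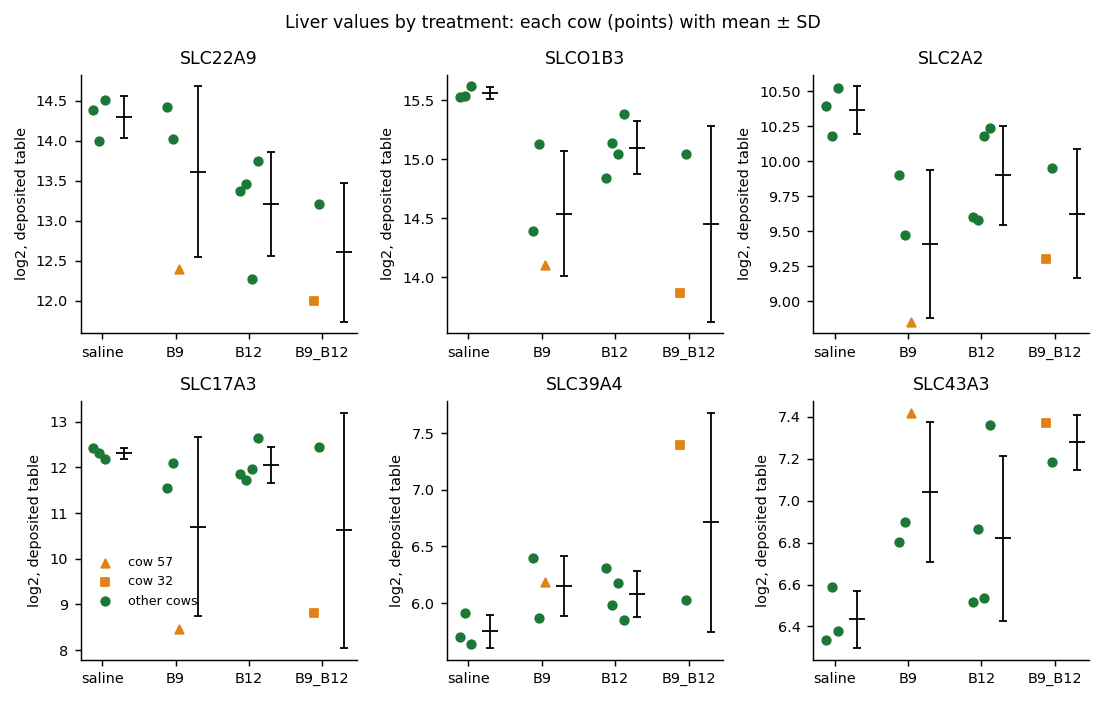
Hepatic log2 values in the deposited table for 6 solute carriers by treatment, each point 1 cow, with mean ± SD in black; orange marks cow 57 (triangle) and cow 32 (square). SLC22A9, SLCO1B3 and SLC2A2 have their lowest B9 and B9_B12 values in these cows, and SLC17A3 sits near 12 in every cow but them.

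Higher values with vitamins were seen in liver for SLC43A3, a purine base carrier. It was at 6.33, 6.59 and 6.38 with saline, at 6.80, 6.90 and 7.42 with B9 (0.61 ± 0.23) and at 7.19 and 7.37 with B9_B12 (0.84 ± 0.26, limma adjusted p = 0.656). SLC39A4, a zinc importer, had 0.96 ± 0.32 with B9_B12, from 7.40 in cow 32 and 6.03 in cow 38 against 5.64 to 5.92 with saline. Without cow 32 the value was 0.28, and with cow 32 as the only treated cow it was 1.65 (limma adjusted p = 0.0318), the single case among the replicates left out in which a solute carrier was called between treatments. The monocarboxylate carrier SLC16A6 had 0.72 with B9. With the slide block it had 1.08, and SLC43A3 with B9 had 1.06. With B12, SLC25A5 had 0.35 and SLC7A9 had -0.67, or -1.01 with the slide block. SLC46A3 had -0.59, and -0.33 with the slide block. SLC22A15 had 0.67, 0.34 without cow 37 and 0.98 with the slide block. It was well above background on 3 of 12 hepatic arrays, and the alternatives put its difference anywhere from 0.30 to 2.87.

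In the mammary gland SLC7A4 had a difference of 0.53 ± 0.20 with B9, from 11.40, 11.36 and 11.65 against 11.05, 10.80 and 10.98 with saline. The only solute carrier with a wider mammary difference was SLC7A10, at -0.68 with B12, picked after its values were seen. SLC46A3 had -0.36 ± 0.15 with B9_B12. SLC2A8 had -0.33 with B9_B12, SLC29A3 -0.30 with B12 and SLC7A7 -0.27 with B9, the last being -0.14 with the slide block. SLC5A8, not well above background on any mammary array, gave 0.19 with B12 and 0.24 with B9_B12. SLC9B1, a sodium-proton exchanger also named in the study for liver, had 0.02, -0.03 and -0.24 in liver for B9, B12 and B9_B12 and was well above background on 5 of 12 hepatic arrays. Across the alternatives run, its B9_B12 difference went from -1.70 to -0.10 in liver and from -1.64 to -0.15 in the gland. As processed here, SLC9B1 had -0.04, -0.01 and -0.31 ± 0.15 in the gland, the last with no overlap between B9_B12 and saline (exact permutation p = 0.1; limma adjusted p = 1; Cyber-T adjusted p = 0.967). SLC26A10, the remaining carrier named there, was not analysed here because no array name was paired with it.

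Whether a vitamin's effect differed between the tissues was tested on the jointly normalized values. No solute carrier was called for B9, B12 or B9_B12, against 0, 1 and 0 of all genes, and 7, 5 and 9 had an unadjusted limma p of 0.05 or less (2.98%, 2.13% and 3.83%, against 2.47%, 1.78% and 4.41% of all genes). The differences of effects, liver minus gland, were -1.34 ± 0.36 for SLCO1B3 with B9 (limma adjusted p = 1), -0.89 ± 0.26 for SLC2A2 with B9 (limma adjusted p = 1) and -1.59 ± 0.54 for SLC22A9 with B9_B12 (limma adjusted p = 0.808), or -1.05 without the hepatic array of cow 32. Leaving out 1 array at a time gave -1.63 to -1.07 for SLCO1B3 with B9. Its highest mammary value in the deposited table (5.97, against a median of 4.91) was that of cow 57 (B9). The mammary array of cow 57 also had the highest hepatocyte marker level of any gland (8.46), and its part was not tested. With B9_B12, SLC39A4 had 0.60 and SLCO1B3 had -1.21 (limma adjusted p = 0.808 for both). With cow 32 as the only hepatic B9_B12 array these were 1.02 (limma adjusted p = 0.0011) and -1.76 (limma adjusted p = 0.0429) and were called, and without cow 32 they were 0.18 and -0.67.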

How the data were processed

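The members, gene lists and tests were chosen with earlier results of these data known. Total RNA was hybridized in 1 colour to bovine 4x44K arrays. The authors deposited the scanner intensity of each spot (Agilent Feature Extraction 10.7.3.1 per the file headers, annotation build Btau_3.1) and a table of log2 values. That table was corrected by normexp and normalized between arrays by the authors, and each column matched its own array's scanner values.

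For tissue levels, median intensities were background-corrected (normexp, offset 50) and quantile-normalized over all 25 arrays, which compresses differences of dim genes. Treatments used the deposited log2 table. Control and outlier spots were left out, and probes were averaged per gene. Of 27886 array names, 11113 were paired with a symbol through RefSeq's table (assembly ARS-UCD2.0, used for names and neighbours only, as the builds differ). Tests used limma 3.58.1 in R 4.3.3 across all 27841 genes with Benjamini-Hochberg adjustment, called at 0.05 and 2-fold. Cyber-T (window 101, confidence 10) was an alternative. Other alternatives were the background correction, scaling, probe choice, dim probes, slide and cow blocks, and arrays left out. The scripts were tested on simulated data. Where a gene was not well above background on any array of a tissue, the fold is a bound against the higher of its own signal and the lowest signal well above background. The bound holds for group means as processed here and takes off no error. Other settings put some differences below it, such as those of SLC27A2 (log2 6.09) and SLC17A2 (3.55).

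Named genes were the 10 largest called differences each way without overlap and with probes of like sign, 2 lists of 18 carriers, the 3 carriers the study named and, per treatment, the 2 largest rises and falls with unadjusted p of 0.05 or less and no overlap; others called are named with their group, and some genes are not reported here. Cow numbers in the labels pair the tissues because both biopsies came from 1 animal. Deviations of the paired biopsies correlated between -0.277 and 0.226 (median 0.0463, above 0.1 in 4 of 12 cows). Replicates are separate cows. Promoter sequences were not used here, and gene positions served only to name neighbours.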

Additional observations from a re-analysis of the deposited data

Results flagged for a closer look

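SLC9B1 was at 4.89 in the liver of cow 37 (B12), apart from the other 3 B12 livers at 5.39 to 5.46; the gap to the nearest was 0.874 of the group's range, above Dixon's critical value for 4 samples. It was 1 of 11 gene and group pairs examined, and chance gives about 1 in 20.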

How the results depend on the processing

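The tissue differences of the 10 genes with the largest values each way kept their direction and stayed called under all alternatives run; in log2 they grew where no offset was added (SLC22A9 from 6.46 to 8.76), since the offset compresses dim values. With no offset, 54 genes were called higher in liver and 50 in the gland. Scaling by the 75th percentile gave 83 there (processed signal) and 97 (normexp), and taken relative to the median of all genes, an alternative chosen after seeing the data, 74 in liver and 47 in the gland (processed signal) and 60 in liver (normexp). Leaving out 1 array at a time gave 38 to 41 hepatic and 29 to 31 mammary calls. Small differences changed sign: SLC6A14 (-0.76, normexp at the 75th percentile), SLC20A1 (0.016 by its brightest probe, 0.054 and 0.24 relative to all genes), SLC35A2 (0.15 and 0.23) and SLC27A6 (0.57 with processed signal) relative to all genes. The cause was not tested.

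With the cow as a replicate block, the pairing gave 40 hepatic and 30 mammary calls, or 39 and 30 as a random block (consensus correlation -0.0329), and no call for a vitamin's effect between tissues; it ended no tissue call.

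Between treatments, leaving out 1 array gave 0 to 1 solute carriers called for B9_B12 in liver and 0 to 2 for its difference between tissues, both with cow 32 as the lone treated hepatic array, assumed to vary like the other groups; every other setting gave 0. Values near 0 changed sign. For SLC9B1 they were 0.14 (processed signal) for B12 and -0.18 (slide block) for B9 in liver, and 0.24 (processed signal), 0.017 (slide as a random block) and 0.12 (slide block) for B12 and 0.11 (slide block) for B9 in the gland; leaving out 1 array gave -0.20 to 0.13 (B9) and -0.17 to 0.10 (B12) in liver and -0.20 to 0.054 (B9) and -0.067 to 0.068 (B12) in the gland. SLC22A9 in the gland had 0.16 for B12 with processed signal, and -0.075 to 0.20 (B9) and -0.13 to 0.049 (B12) with 1 array left out. Signal over background was lowest on the hepatic array of cow 32, and 18 of the 235 genes were not well above background on any array.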
